A study of Mus musculus with 4 samples.

Results

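The genes described are 40 mouse genes whose products fold, modify, quality-check and export proteins at the endoplasmic reticulum (ER), together with the sensors that watch its load. They were chosen by name with earlier results of these data known, so their counts beside those of all genes are descriptions and not independent support. Every probe set that the platform annotation assigned to 1 of these symbols alone was taken. All 40 were found, with 97 probe sets among the 34945 that name 1 gene, and they stand among 18193 genes in all. The 27 genes with several probe sets had up to 6. One further probe set names a member beside another gene and was not used.

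The study compared how STAT4, which carries the interleukin-12 signal, and STAT6, which carries the interleukin-4 signal, shape helper T cells. RNA came from primary CD4+ T cells of mouse spleen and lymph nodes, sorted as naive cells, activated through CD3 and CD28 for 3 days and expanded in interleukin-2 for 4 days. Interleukin-12 with blocking of interleukin-4 made Th1 cultures, and interleukin-4 with blocking of interferon gamma made Th2 cultures. A second stimulus of CD3, CD28 and the polarizing cytokine was given on day 7 and lasted 2 h. The 4 groups were Th1 wild type (C57BL/6J), Th1 STAT4-deficient (C57BL6-STAT4<tm1>), Th2 wild type (C57BL/6J) and Th2 STAT6-deficient (B6.129S2©-STAT6<tm1Gru>/J). Each group had 1 Affymetrix array, so no difference has a replicate check or a test, and every value describes these arrays. The age and sex of the mice, and whether mice were pooled, are not given in the sources used here. Both deficiencies were present from the naive cell on, so effects during culture and at restimulation cannot be told apart.

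Proteins bound for the surface or for secretion, cytokines among them, enter the ER through the Sec61 channel, lose their signal peptide, gain sugar chains and disulfide bonds, and are folded by chaperones. Misfolded chains are sent back to the cytosol for degradation, and folded ones leave in COPII vesicles. When unfolded chains build up, the sensors IRE1 (encoded by Ern1), PERK (Eif2ak3) and ATF6 (Atf6) start the unfolded protein response. IRE1 splices the Xbp1 transcript into the form that makes an active transcription factor, and XBP1 and ATF6 raise the chaperone and degradation genes. XBP1 is best known in lymphocytes for building the secretory apparatus of plasma cells.

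Much of this control runs through short promoter elements, and these are shown because they mark which of the 40 genes carry the textbook ER stress element. The ER stress response element, ERSE, was searched as CCAAT followed, after any 9 bases, by CCACG, on both strands in windows from 250 bases before to 50 bases after each RefSeq start (GRCm38.p6, 300 bases). Of the members 33 had a window, 36 windows in all (not Atf6, Derl1, Hyou1, Manf, Sec11c, Sec61a1 and Ssr2). An exact ERSE lay in 9 of these 36 windows (25.0%), each of a different gene, against 39 of 32851 windows of all genes (0.119%). The 9 genes were Calr, Canx, Creld2, Derl3, Dnajc3, Hsp90b1, Hspa5, Pdia6 and Syvn1. A second form, ERSE-II, searched as ATTGG followed, after any 1 base, by CCACG, lay in the windows of Dnajb11 and Herpud1 (5.56% of the member windows against 0.0365% of all). The XBP1-type element TGACGTGG lay in the window of Sec24d alone among the members, 2.78% of their windows against 0.676% of all. In the stretches below the fixed letters of each exact match are in capitals, and the rest, including the 9 free letters of the ERSE, is in lower case. An ERSE on the opposite strand reads as CGTGG before ATTGG. ERSE and ERSE-II share their half-sites, but no member window held both, nor any other pair of the motifs searched. The base at the start itself is counted as 0.
Hspa5, chr2:34772013-34772055, + strand, bases −77 to −35 from the start: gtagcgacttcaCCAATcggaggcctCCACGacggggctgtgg
Pdia6, chr12:17266479-17266521, + strand, bases −110 to −68 from the start: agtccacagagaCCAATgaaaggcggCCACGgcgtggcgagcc
Dnajc3, chr14:118937815-118937857, + strand, bases −117 to −75 from the start: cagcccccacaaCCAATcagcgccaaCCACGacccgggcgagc
Syvn1, chr19:6046520-6046562, + strand, bases −56 to −14 from the start: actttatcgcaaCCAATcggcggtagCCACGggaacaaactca
Canx, chr11:50325788-50325830, - strand, bases −157 to −115 from the start: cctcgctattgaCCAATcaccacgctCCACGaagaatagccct
Calr, chr8:84847063-84847105, - strand, bases −174 to −132 from the start: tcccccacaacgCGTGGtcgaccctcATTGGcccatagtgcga
Creld2, chr15:88819508-88819550, + strand, bases −138 to −96 from the start: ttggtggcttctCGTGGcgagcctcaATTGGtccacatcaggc
Derl3, chr10:75893230-75893272, + strand, bases −168 to −126 from the start: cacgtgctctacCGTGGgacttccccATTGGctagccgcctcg
Hsp90b1, chr10:86705521-86705668, - strand, bases −224 to −77 from the start: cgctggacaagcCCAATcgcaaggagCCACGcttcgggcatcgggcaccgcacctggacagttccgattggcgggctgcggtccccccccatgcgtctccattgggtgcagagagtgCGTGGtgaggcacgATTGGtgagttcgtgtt
Herpud1, chr8:94386365-94386399, + strand, bases −64 to −30 from the start: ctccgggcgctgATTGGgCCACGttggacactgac
Sec24d, chr3:123267458-123267489, + strand, bases −38 to −7 from the start: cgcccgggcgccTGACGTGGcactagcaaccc

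Hsp90b1 was the only one of the 9 with 2 exact matches in its window, and they lay on opposite strands. The letters of a STAT site, TTCNNNGAA, lay in 3 of the 36 member windows (Edem2, Eif2ak3 and Sec23b), 8.33% against 8.30% of all windows. With TTC and GAA 4 bases apart, the spacing typical of STAT6, they lay in none of the 36 against 6.95% of all windows. A match is a string of letters and not a measured site, and a window without a match says nothing of binding elsewhere.

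**Figure D1:**
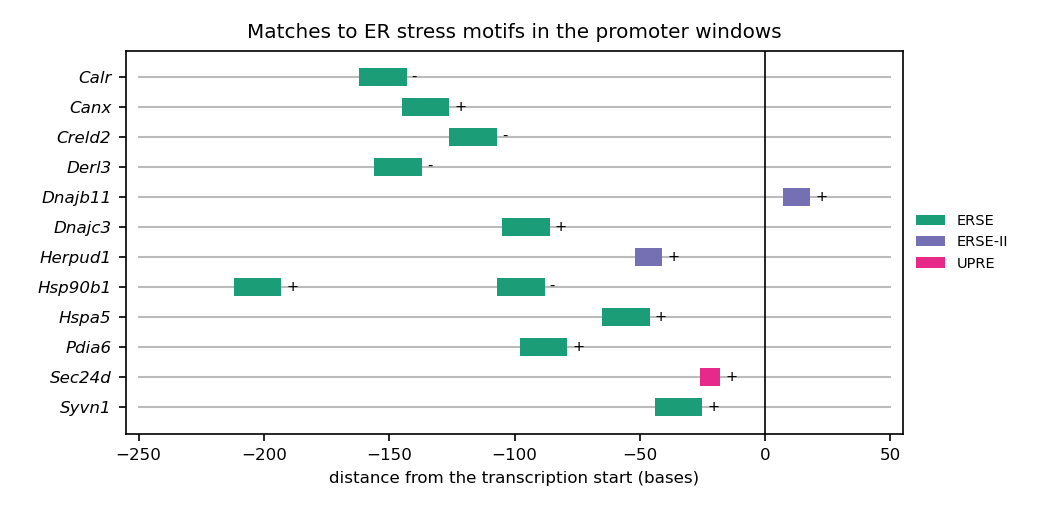
Positions of exact matches to 3 ER stress motifs in the promoter windows of the 12 member genes that hold one. The horizontal axis is the distance from the RefSeq transcription start in bases, a coloured bar is a match and the sign beside it its strand; UPRE is the XBP1-type element. Of the genes 9 hold an ERSE, Hsp90b1 holds 2, and the Dnajb11 match lies after the start.

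Levels are log2 values made by the authors with RMA, and each gene is represented by its brightest probe set (highest mean over the arrays) unless another is named. A gene was called higher or lower where 2 arrays differed by at least 1 log2 unit (2-fold) and the brighter one reached 5.82, the median of all probe sets; all 40 members reached it in every comparison. "Higher" and "lower" without a value mean this call. The arrays do not share 1 scale. The median difference over all genes at the level minimum was −0.30 for STAT6 loss (the deficient Th2 array less the wild type one), 0.13 for STAT4 loss (likewise in Th1), 0.37 for Th2 less Th1 wild type and −0.02 for Th2 less Th1 between the knockouts. Quantile normalization brought the first 3 to −0.04, 0.07 and −0.00, and centring on the hybridization controls gave −0.45, 0.53 and 0.78. RNA quality was lowest on the STAT6-deficient array, where the beta-actin control read 2.08 log2 units more at its 3′ than at its 5′ end, against 0.32 to 0.85 on the others. Stat4 read 11.45 and 9.20 in Th1 cells with and without STAT4, and Stat6 read 10.93 and 10.92 in Th2 cells with and without STAT6; whether these probes lie in the deleted parts is not known, so they do not check the labels. In bulk RNA fewer cells of a type and less RNA per cell cannot be told apart.

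Most of the 40 genes stood highest in wild type Th2 cells. Their median level was 11.34 there and 10.23 without STAT6, and in Th1 cells it was 10.48, or 10.29 without STAT4. The Th2 wild type array was the brightest for 32 of 40 members, against 41.8% of the 13147 genes that reached the level minimum on any array. Th1 wild type was brightest for 6 of 40, near its share of 15.4% of all genes. Each deficient array was brightest for 1 member. These were Hyou1 in Th1 STAT4-deficient cells (24.1% of all genes) and Sec61b in Th2 STAT6-deficient cells (18.7%). The Th1 STAT4-deficient array was the dimmest for 20 members, against 21.1% of all genes.

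**Figure D2:**
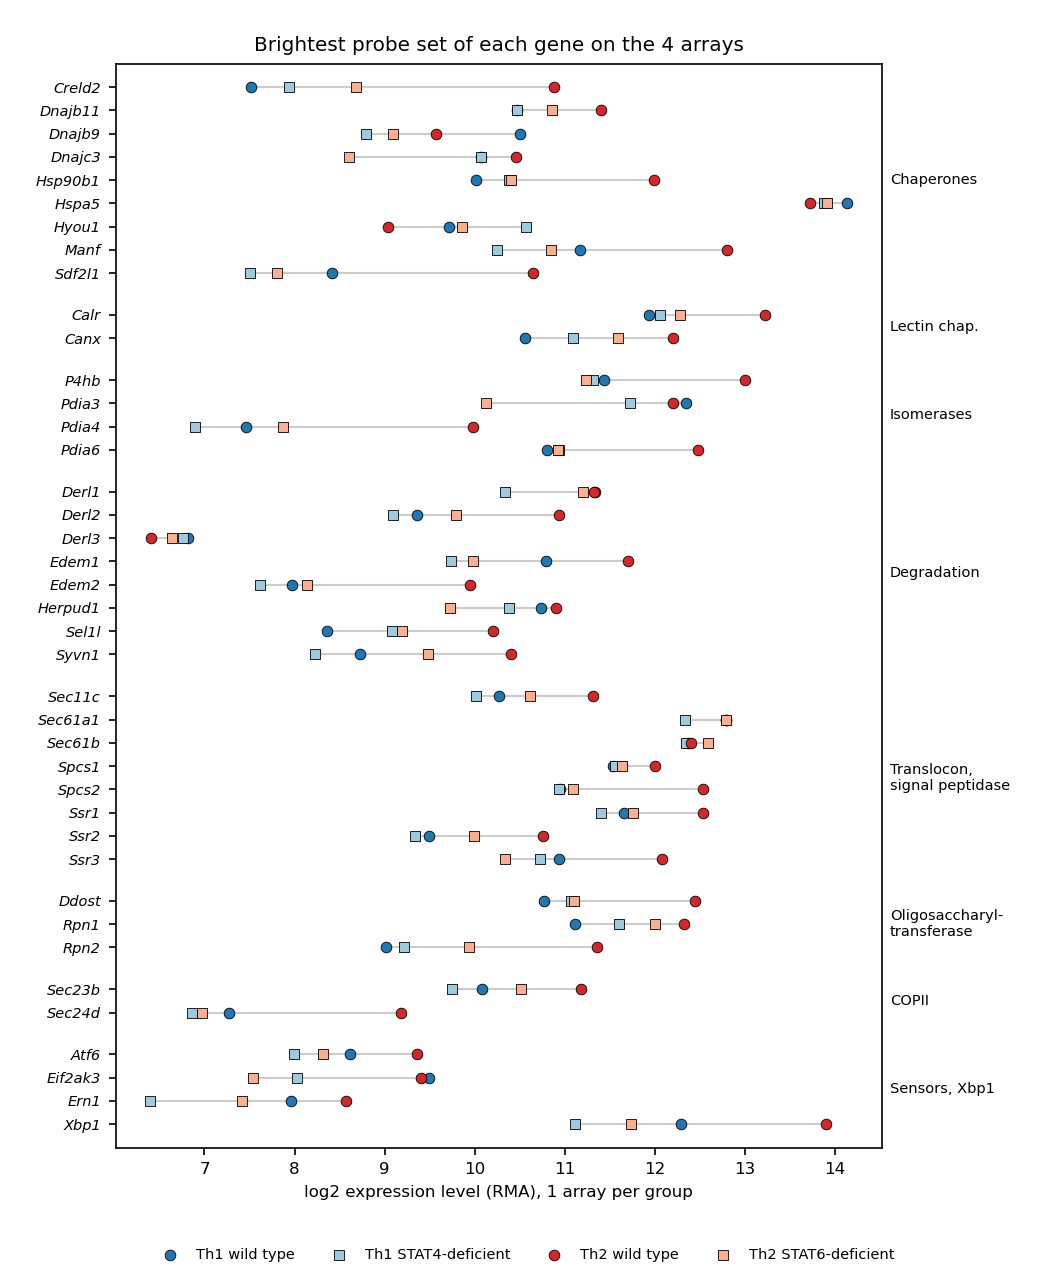
Levels of the 40 genes on the 4 arrays, by role. The horizontal axis is the log2 level of the brightest probe set, each point is 1 array, circles are wild type, squares are STAT-deficient and a grey line spans the arrays; overlapping points hide one another. The Th2 wild type point is the rightmost for 32 of the 40 genes.

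Wild type Th2 cells had 23 of the 40 genes higher than wild type Th1 cells, where 25.4% of the 12111 genes tested were higher, and none lower, where 8.14% were lower. The members' median difference was 1.17, against 0.37 for all genes tested. Without STAT6, 23 of the 40 were lower in Th2 cells, where 19.5% of 11490 genes were lower, and none was higher, where 7.01% were higher. The median was −1.15 against −0.30, and 36 of the 40 differed downwards by any amount, where 7544 of the 11490 genes did. Without STAT4, 5 of 40 were lower in Th1 cells, where 5.34% of 12608 genes were lower, and none was higher, where 6.18% were higher. That median was −0.25 against 0.13, and it turned to 0.14 with the hybridization controls. Since the members are bright, the background was also taken over genes reaching the 75th percentile of level, 7.76, which left the members' counts in these 3 comparisons as they were. Between the wild types 32.2% of genes were then higher and 6.09% lower. In STAT6 loss 22.4% were lower and 7.47% higher, and in STAT4 loss 7.47% were lower and 5.14% higher. The wild type comparison shares the Th2 wild type array with STAT6 loss and the Th1 wild type array with STAT4 loss, so their counts are not independent. With 1 array of each, the source of the mice and the handling of a culture cannot be told apart from genotype and polarization.

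**Figure D3:**
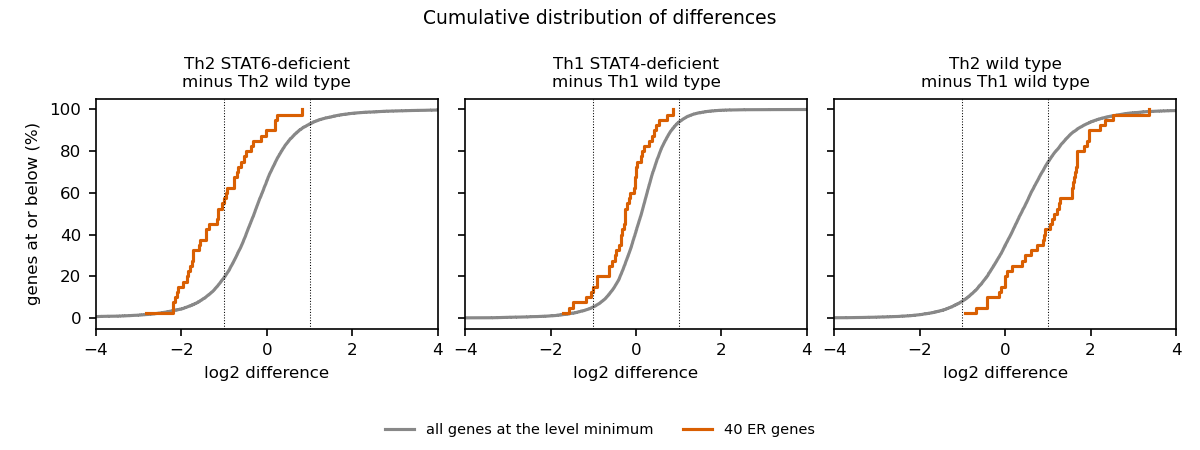
Cumulative share of genes (%) by log2 difference for the 40 ER genes (orange) and all genes at the level minimum (grey) in 3 comparisons, with dotted lines at the 2-fold limits. The orange line lies left of the grey one in STAT6 loss (medians −1.15 and −0.30), less so in STAT4 loss (−0.25 and 0.13), and right of it between the wild types (1.17 and 0.37).

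All 7 T cell markers reached the level minimum on every array, with list medians between 11.72 and 12.69. Between the wild types 3 of the 7 were lower in Th2 cells (Cd3e −1.14, Cd4 −1.05 and Cd5 −1.31) and none was higher, where 8.14% of all genes were lower. Cd28 was lower in STAT4 loss (−1.01), and no T cell marker was called in STAT6 loss. Of 9 B and plasma cell markers 2 and 5 reached it in Th1 cells with and without STAT4, and 5 and 3 in Th2 cells with and without STAT6, with list medians of 5.48, 5.92, 5.94 and 5.45. The plasma cell genes Jchain and Tnfrsf17 stayed below it on all 4 arrays. Sdc1, another plasma cell marker, read 7.35 in Th2 cells, 7.21 in Th2 cells lacking STAT6, 4.64 in Th1 cells and 5.57 in Th1 cells lacking STAT4. Tnfrsf13b, of B and plasma cells, read 8.69 in Th1 and 10.51 in Th2 wild type cells, 8.49 without STAT4 and 9.15 without STAT6. Ighm, of the same list, read 8.76 and 9.83 in these wild types, 10.30 without STAT4 and 9.98 without STAT6. Of 5 markers tested, 3 were higher in Th2 than in Th1 wild type cells, where 25.4% of all genes were. In STAT6 loss 1 of 5 was lower (19.5% of all genes), and in STAT4 loss 1 of 5 was higher (6.18%). Myeloid and dendritic cell markers reached the minimum in 4, 2, 5 and 4 of 8 on the arrays in the same order. In STAT6 loss this list went both ways, with 3 of 6 tested lower (Adgre1, at 8.26 and 5.92 with and without STAT6, Itgax and Fcgr3) and Mpeg1 higher, at 4.66 and 8.12 in Th2 cells with and without STAT6. Mast cell and basophil markers reached the minimum in 2, 2, 1 and 0 of 7. Cpa3, the 1 tested in STAT6 loss, read 8.64 and 4.90 in Th2 cells with and without STAT6. Kit went the other way, at 3.95 and 5.69 in these cells, both under the minimum. Between the wild types Cpa3 was higher in Th2 cells and Kit, at 6.72 in Th1 cells, was lower. The part of other cells in the members' differences was not tested.

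The 3 sensors and Xbp1 were all lower without STAT6 (4 of 4, median −1.51), and 3 of the 4 were lower without STAT4 (median −1.32), where 19.5% and 5.34% of all genes were lower. Under quantile normalization and loess 2 of the 4 were lower in each loss. In STAT6 loss 12.3% and 13.0% of all genes were lower under these 2 scalings. Atf6 (−0.73 in both) and Ern1 (−0.80 and −0.83) then missed the limit in STAT6 loss, and Xbp1 (−0.83 and −0.93) missed it in STAT4 loss, as it did with the hybridization controls (−0.78). Atf6 missed it after median centring too (−0.92), and with the mean of all probe sets only Xbp1 was lower, in both losses. Xbp1 read 13.90 in Th2 and 12.29 in Th1 cells of the wild type, against 11.74 after loss of STAT6 and 11.12 after loss of STAT4. It was 4.47-fold lower without STAT6, 2.25-fold lower without STAT4 and 3.05-fold higher in Th2 than in Th1 wild type cells. All 4 Xbp1 probe sets shared the STAT6 loss (−2.16 to −1.57) and the Th2 excess (1.45 to 1.78), while in STAT4 loss they ran from −1.64 to −0.57 and 3 of the 4 passed the limit. Whether the probe sets separate spliced from unspliced Xbp1 was not examined. Eif2ak3, the gene of PERK, read 9.50 and 8.03 in Th1 cells with and without STAT4, and 9.41 and 7.54 in Th2 cells with and without STAT6. Its wild types differed by −0.09, and it was 3.64-fold lower without STAT6 and 2.76-fold lower without STAT4. Its other probe sets were dim, under the level minimum in STAT6 loss, and gave −0.28 and −0.88 in STAT4 loss. Ern1, the gene of IRE1, read 8.57 in Th2 cells, 7.42 in Th2 cells lacking STAT6, 7.96 in Th1 cells and 6.40 in Th1 cells lacking STAT4. It differed by −1.15 in STAT6 loss and by −1.56 in STAT4 loss, but its other probe sets at the level minimum differed by −0.81 and 0.09 in the first and by −0.34 and −0.20 in the second, so neither Ern1 call was shared by them. Atf6 read 8.62 in Th1 and 9.36 in Th2 wild type cells, 8.0 without STAT4 and 8.31 without STAT6. It had a difference of −1.05 in STAT6 loss that lies just past the limit and that its other probe sets, at −0.83 and −0.86, did not reach. In STAT4 loss Atf6 differed by −0.62 on its brightest probe set and by −1.53 and −0.49 on the others.

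Of the chaperones and their co-factors 5 of 9 were lower without STAT6 (median −1.58), where 19.5% of all genes were lower. Hspa5, Hyou1, Dnajb9 and Dnajb11 were not among them. Hspa5, which encodes BiP, the central ER chaperone and the usual marker of ER stress, read 13.72 in Th2 and 14.13 in Th1 cells of the wild type, against 13.91 after loss of STAT6 and 13.88 after loss of STAT4. Its 3 probe sets differed by 0.19, −0.32 and −0.07 in STAT6 loss and by −0.25, −0.74 and −0.06 in STAT4 loss, so that none reached 2-fold. Hyou1, the nucleotide exchange factor that works with BiP, read 9.72 and 10.57 in Th1 cells with and without STAT4, and 9.04 and 9.86 in Th2 cells with and without STAT6. Th2 wild type cells were its dimmest. It differed by 0.82 in STAT6 loss (−0.45 and −0.19 on its other probe sets) and by 0.85 in STAT4 loss, where its other probe sets gave 1.25 and 0.95. Quantile normalization and loess moved Hyou1 past the limit, higher in STAT6 loss (1.14 and 1.09) and lower in Th2 than in Th1 wild type cells (−1.18 and −1.15). Dnajb9, a J-domain co-chaperone of BiP and a classic XBP1 target, read 9.57 in Th2 cells, 9.09 in Th2 cells lacking STAT6, 10.50 in Th1 cells and 8.79 in Th1 cells lacking STAT4. It was highest in Th1 wild type cells and 3.28-fold lower without STAT4, the largest STAT4 difference of the 40, and its single probe set differed by only −0.49 in STAT6 loss. Between the wild types it differed by −0.93, and it passed the limit under quantile normalization (−1.37) and loess (−1.42).

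Sdf2l1, Creld2, Manf and Hsp90b1 were higher in Th2 than in Th1 wild type cells and lower without STAT6. Sdf2l1, a partner of the ER J-domain proteins, read 8.42 in Th1 and 10.64 in Th2 wild type cells, 7.51 without STAT4 and 7.81 without STAT6. At 7.15-fold it had the largest decrease of the 40 in STAT6 loss. Creld2, an ER stress-inducible secretory pathway protein, read 10.88 in Th2 and 7.51 in Th1 cells of the wild type, against 8.69 after loss of STAT6 and 7.93 after loss of STAT4. Its Th2 excess of 10.3-fold was the largest of the members, and it was 4.59-fold lower without STAT6. Manf, an ER-resident factor that binds BiP, read 11.17 and 10.25 in Th1 cells with and without STAT4, and 12.80 and 10.84 in Th2 cells with and without STAT6. It was 3.88-fold lower without STAT6. These 3 genes have 1 probe set each. In STAT4 loss Sdf2l1 and Manf differed by −0.91 and −0.92, near the limit, and Creld2 by 0.42. Hsp90b1, the ER form of HSP90, read 11.98 in Th2 cells, 10.41 in Th2 cells lacking STAT6, 10.01 in Th1 cells and 10.38 in Th1 cells lacking STAT4. It was 2.99-fold lower without STAT6, but its Th2 excess of 1.97 log2 units was not seen on its other probe set, which differed by −0.48 between the wild types and by −2.99 in STAT6 loss. Dnajc3, a co-chaperone that also restrains PERK, read 10.07 in Th1 and 10.46 in Th2 wild type cells, 10.07 without STAT4 and 8.61 without STAT6. It was 3.62-fold lower without STAT6, with its other probe sets at the level minimum between −1.06 and −0.60, while between the wild types those others differed by 1.20 to 2.03 against 0.40 on the brightest. Dnajb11, another J-domain protein, differed by −0.54 in STAT6 loss and by 0.94 between the wild types, short of the limit in both.

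The lectin chaperones hold newly made glycoproteins while they fold. Calr, the gene of calreticulin, read 13.22 in Th2 and 11.93 in Th1 cells of the wild type, against 12.28 after loss of STAT6 and 12.06 after loss of STAT4. Canx, that of its membrane-bound relative calnexin, read 10.55 and 11.09 in Th1 cells with and without STAT4, and 12.20 and 11.59 in Th2 cells with and without STAT6. Both were higher in Th2 than in Th1 wild type cells, 2.45-fold and 3.13-fold. In STAT6 loss they differed by −0.95 and −0.61, under the limit, with other probe sets down to −1.08 for Calr and −1.28 for Canx. Neither differed by 2-fold in STAT4 loss.

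The disulfide isomerases were all lower without STAT6, 4 of 4 with a median of −1.92, where 19.5% of all genes were lower. All 4 were lower under each scaling, where from 12.3% to 24.2% of all genes were. With the mean of all probe sets Pdia3 (−0.96) and Pdia4 (−0.46) were not lower. The second probe set of each lay under the level minimum on both Th2 arrays. Pdia4 read 9.98 in Th2 cells, 7.87 in Th2 cells lacking STAT6, 7.46 in Th1 cells and 6.90 in Th1 cells lacking STAT4. It was 4.30-fold lower without STAT6 and 5.72-fold higher in Th2 wild type cells. P4hb, the gene of protein disulfide isomerase itself, read 11.44 in Th1 and 13.00 in Th2 wild type cells, 11.31 without STAT4 and 11.24 without STAT6. Pdia6 read 12.48 in Th2 and 10.81 in Th1 cells of the wild type, against 10.92 after loss of STAT6 and 10.94 after loss of STAT4. On both, the arrays other than Th2 wild type lay close together, from 11.24 to 11.44 for P4hb and from 10.81 to 10.94 for Pdia6, and the decreases in STAT6 loss were 3.39-fold and 2.95-fold. Pdia3, the isomerase that works with calnexin and calreticulin on glycoproteins, read 12.35 and 11.72 in Th1 cells with and without STAT4, and 12.20 and 10.12 in Th2 cells with and without STAT6. It showed no Th2 excess (−0.15) and yet was 4.22-fold lower without STAT6, so that its STAT6-deficient level was also 3.03-fold below that of STAT4-deficient Th1 cells. No isomerase was called in STAT4 loss, where the 4 differed by −0.63 to 0.13.

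**Figure D4:**
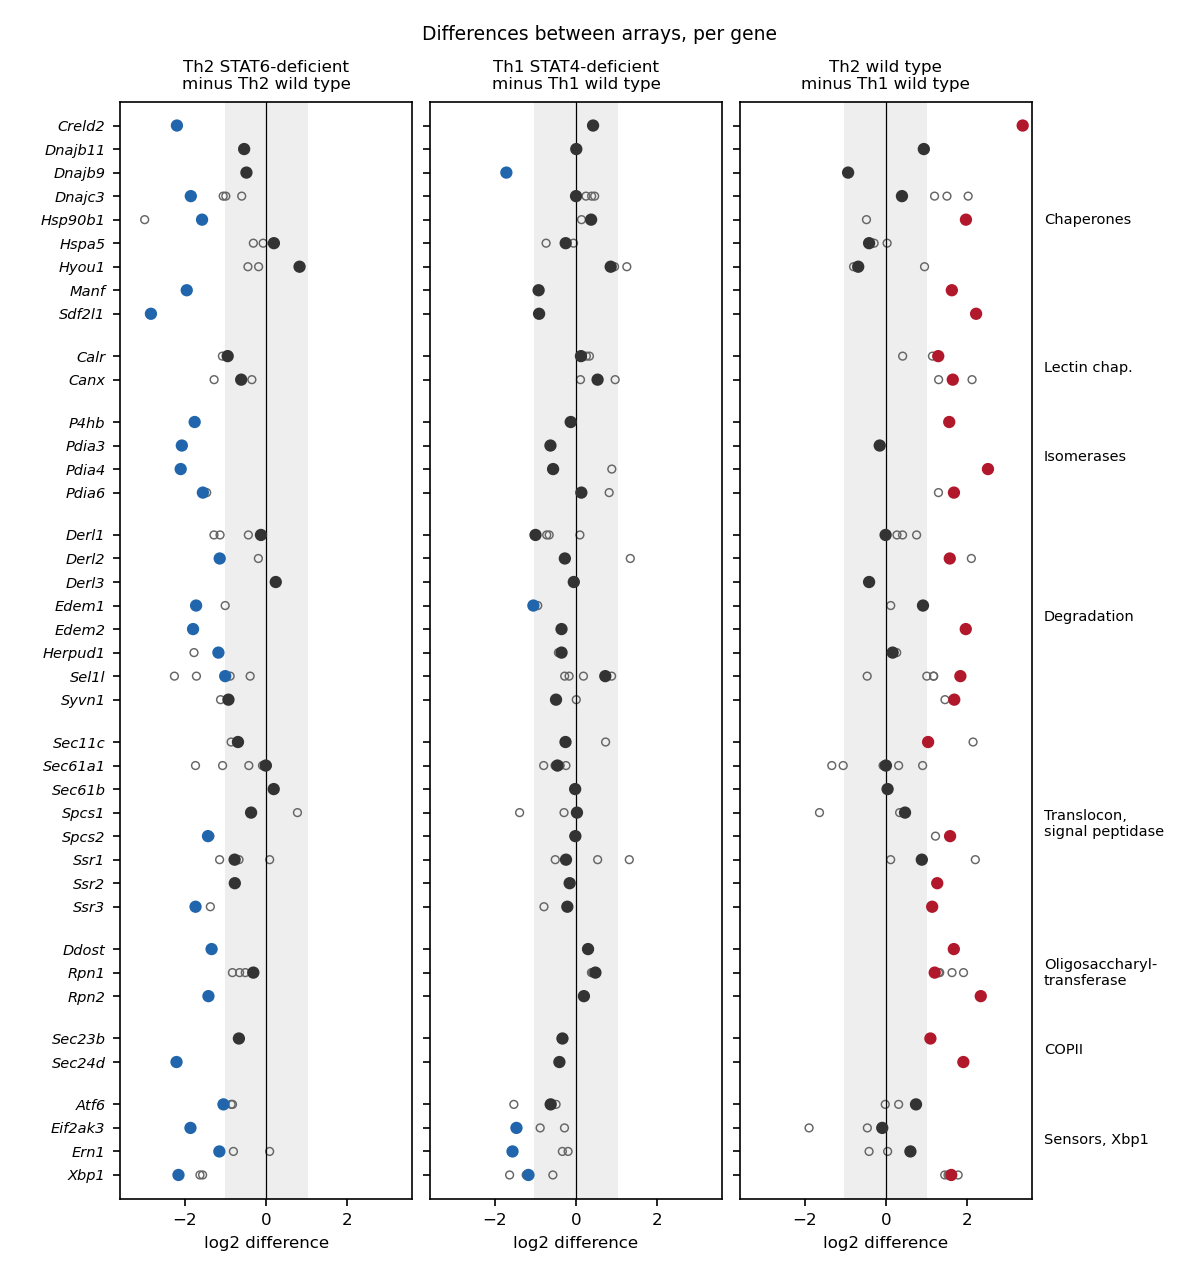
Log2 differences of the 40 genes in 3 comparisons, by role. Filled points are the brightest probe set (blue lower, red higher, black not called), open circles are other probe sets at the level minimum and the grey band marks differences under 2-fold; 23 genes are blue in STAT6 loss, 5 in STAT4 loss, and 23 are red between the wild types.

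Genes of ER-associated degradation, which returns misfolded proteins to the cytosol, were lower without STAT6 in 5 of 8 (median −1.08), where 19.5% of all genes were lower. Under quantile normalization and loess 2 of 8, Edem1 and Edem2, were lower, where 12.3% and 13.0% of all genes were. In Th2 wild type cells 4 of 8 were higher, where 25.4% of all genes were higher. Edem2, a mannosidase-like protein that marks glycoproteins for disposal, read 9.94 in Th2 cells, 8.14 in Th2 cells lacking STAT6, 7.97 in Th1 cells and 7.62 in Th1 cells lacking STAT4. It was 3.48-fold lower without STAT6 and 3.91-fold higher in Th2 wild type cells. Its relative Edem1 read 10.79 in Th1 and 11.71 in Th2 wild type cells, 9.74 without STAT4 and 9.98 without STAT6. It was lower in both losses, 3.31-fold without STAT6 and 2.07-fold without STAT4; its other probe set differed by −1.01 and −0.94. Syvn1, the gene of the ubiquitin ligase HRD1, read 10.41 in Th2 and 8.72 in Th1 cells of the wild type, against 9.48 after loss of STAT6 and 8.23 after loss of STAT4. Sel1l, that of its adaptor, read 8.36 and 9.09 in Th1 cells with and without STAT4, and 10.20 and 9.19 in Th2 cells with and without STAT6. Both were higher in Th2 wild type cells, 3.21-fold and 3.57-fold. In STAT6 loss Syvn1 differed by −0.93 (−1.12 on its other probe set) and Sel1l by −1.01, with its other 4 probe sets between −2.26 and −0.39. Herpud1, a scaffold of the HRD1 complex, read 10.91 in Th2 cells, 9.73 in Th2 cells lacking STAT6, 10.74 in Th1 cells and 10.38 in Th1 cells lacking STAT4. It was 2.26-fold lower without STAT6 (differences −1.18, and −1.78 on its other probe set), with no Th2 excess (0.17). Derl2, a derlin of the same complex, read 9.36 in Th1 and 10.94 in Th2 wild type cells, 9.09 without STAT4 and 9.79 without STAT6. It was 2.21-fold lower without STAT6; its dimmer probe set gave only −0.19, and in STAT4 loss the 2 gave −0.27 and 1.34. Derl1 read 11.33 in Th2 and 11.33 in Th1 cells of the wild type, against 11.20 after loss of STAT6 and 10.33 after loss of STAT4. It differed by −0.13 on its brightest probe set in STAT6 loss but by −1.29 and −1.14 on 2 others, and in STAT4 loss it stopped just short of the limit. Derl3, which carries an ERSE in its window, read between 6.40 and 6.81 on all arrays.

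Of the 8 genes of the entry machinery 2 were lower without STAT6 (25.0%), near the 19.5% of all genes and the 22.4% of bright ones. Between the wild types 4 of 8 were higher in Th2 cells, where 25.4% of all genes were. Sec61a1 and Sec61b, the main subunits of the channel, differed by −0.01 and 0.19 in STAT6 loss and by 0.00 and 0.04 between the wild types. Sec61a1 read 12.79 and 12.33 in Th1 cells with and without STAT4, and 12.79 and 12.78 in Th2 cells with and without STAT6 on its brightest probe set, but its 6 probe sets disagreed, from −1.74 to 0.03 in STAT6 loss and from −1.33 to 0.91 between the wild types. Spcs2, a signal peptidase subunit, read 12.53 in Th2 cells, 11.10 in Th2 cells lacking STAT6, 10.95 in Th1 cells and 10.93 in Th1 cells lacking STAT4. It was 2.70-fold lower without STAT6, with its other probe set at −1.39. Ssr3, a subunit of the translocon-associated protein complex, read 10.94 in Th1 and 12.08 in Th2 wild type cells, 10.72 without STAT4 and 10.34 without STAT6. It was 3.34-fold lower without STAT6. The other genes of these complexes stayed under the limit in STAT6 loss on their brightest probe set. Sec11c, the catalytic subunit of the peptidase, read 11.31 in Th2 and 10.27 in Th1 cells of the wild type, against 10.61 after loss of STAT6 and 10.01 after loss of STAT4 (difference −0.69 in STAT6 loss). Spcs1, another of its subunits, read 11.53 and 11.56 in Th1 cells with and without STAT4, and 12.01 and 11.63 in Th2 cells with and without STAT6 (−0.37, and 0.77 on its dimmest probe set). Both remaining genes belong to the same complex as Ssr3. Ssr1 read 12.54 in Th2 cells, 11.76 in Th2 cells lacking STAT6, 11.65 in Th1 cells and 11.40 in Th1 cells lacking STAT4 (−0.78, and −1.15 on its second brightest probe set). Ssr2 read 9.50 in Th1 and 10.76 in Th2 wild type cells, 9.34 without STAT4 and 9.99 without STAT6 (−0.77). Th2 wild type cells exceeded Th1 in Spcs2 (2.99-fold), Ssr2 (2.40-fold), Ssr3 (2.21-fold) and Sec11c (2.06-fold), of which Spcs2 alone passed the limit under quantile normalization and loess. In STAT4 loss the brightest probe sets of all 8 lay between −0.46 and 0.02.

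Oligosaccharyltransferase adds the sugar chain to proteins as they enter. Its 3 subunit genes were all higher in Th2 than in Th1 wild type cells, where 25.4% of all genes were higher. The excess was 5.06-fold for Rpn2, 3.19-fold for Ddost and 2.30-fold for Rpn1 (0.99 log2 units, under the limit, after quantile normalization). Rpn2 read 11.36 in Th2 and 9.02 in Th1 cells of the wild type, against 9.93 after loss of STAT6 and 9.21 after loss of STAT4. Ddost read 10.77 and 11.07 in Th1 cells with and without STAT4, and 12.45 and 11.10 in Th2 cells with and without STAT6. Without STAT6 they were 2.68-fold and 2.54-fold lower. Rpn1 read 12.32 in Th2 cells, 12.01 in Th2 cells lacking STAT6, 11.12 in Th1 cells and 11.60 in Th1 cells lacking STAT4. It differed by −0.32, with its other probe sets at the level minimum between −0.83 and −0.35. All 3 differed upwards in STAT4 loss, by 0.19 to 0.48, none by 2-fold, where 7339 of 12608 genes differed upwards.

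Of the COPII coat genes, Sec24d, a cargo-selecting subunit, read 7.27 in Th1 and 9.18 in Th2 wild type cells, 6.86 without STAT4 and 6.97 without STAT6. It was 4.62-fold lower without STAT6 and 3.76-fold higher in Th2 wild type cells. Sec23b, of the inner coat, read 11.18 in Th2 and 10.08 in Th1 cells of the wild type, against 10.51 after loss of STAT6 and 9.75 after loss of STAT4. It was 2.14-fold higher in Th2 wild type cells (0.74 log2 units after quantile normalization and 0.71 after loess) but differed by −0.67 in STAT6 loss.

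Members lower in both losses numbered 4 of 40 (Xbp1, Eif2ak3, Ern1 and Edem1), 10.0%, against 270 of 10951 genes tested in both, 2.47%. The number moved with the setting. It was 6 of 40 (against 3.11% of genes) after median centring, 2 (5.0% against 2.14%) after quantile normalization, 1 (2.5% against 2.10%) after loess and 2 (5.0% against 1.46%) with the hybridization controls. With the mean of all probe sets Xbp1 alone was left (2.5% against 1.83%). Xbp1 and Edem1 missed the limit in STAT4 loss under 3 of the scalings, Edem1 at −0.87 (quantile normalization), −0.93 (loess) and −0.66 (hybridization controls). Eif2ak3 was in the number under all 5 scalings. Dnajb9 was the remaining STAT4 call. The losses share no array. Over the 40 genes their differences correlated with r = 0.28 (Spearman 0.28), and over the 10951 genes with r = 0.21 (0.15); these are descriptions across genes, which share the arrays' scale and RNA quality. For Xbp1, 3 of its 4 probe sets were lower in both losses; for Eif2ak3, Ern1 and Edem1 only the brightest was. Of the 5 STAT4 calls, only that of Dnajb9, with its single probe set, was shared by every probe set of the gene at the level minimum.

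Between the deficient arrays few members were called. Th2 STAT6-deficient minus Th1 STAT4-deficient cells had a median of 0.30 over the 40 genes, with 2 lower (Dnajc3 −1.46, Pdia3 −1.60), where 12.6% of 12582 genes were lower, and 2 higher (Syvn1 1.25, Ern1 1.02), where 10.3% were higher. The other 3 probe sets of Dnajc3 at the level minimum differed by 0.79, 0.06 and 0.14, and with the mean of all probe sets Dnajc3 (−0.22), Pdia3 (−0.71), Ern1 (−0.14) and Syvn1 were no longer called. At the 75th percentile of level 2 were lower and 1 higher, where 5.17% of genes were lower and 14.4% higher. Creld2, Pdia4, Rpn2 and Sdf2l1, which had the 4 largest Th2 excesses, differed by 0.75, 0.97, 0.72 and 0.29. The number higher depended on the scaling. It was 9 with 2 lower after median centring and 1 with 2 lower with the hybridization controls. Median centring moves all genes of this comparison upwards, since the array medians were 6.01 in STAT4-deficient and 5.63 in STAT6-deficient cells. The 9 therefore cannot be set against the 10.3% above. The wild type comparison and this one share no array, and the difference between them was not tested.

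Of the 9 members with an ERSE, 4 were lower in STAT6 loss (Creld2, Dnajc3, Hsp90b1 and Pdia6) with a median of −0.95. Of the 24 others with a window 17 were lower with a median of −1.38, where 19.5% of all genes were lower. Between the wild types 6 of 9 and 14 of 24 were higher, where 25.4% of all genes were higher. Hspa5 and Derl3, whose ERSE stretches are printed above, differed by no more than 0.41 log2 units on their brightest probe set in any of the 4 comparisons, and Creld2, with the same element, had the largest Th2 excess. Sec24d, the only member with the XBP1-type element, was lower in STAT6 loss and higher in Th2 wild type cells.

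The disagreement between probe sets of 1 gene gives the only technical spread available. Its SD in log2 units was 0.52 for the members in STAT6 loss (0.65 for all genes), 0.49 in STAT4 loss (0.48) and 0.68 between the wild types (0.71). Counted singly, 43 of 88 member probe sets at the level minimum were lower in STAT6 loss and none higher. Among 20225 gene probe sets 20.4% were lower and 7.58% higher. Of the 88, 80 differed downwards, where 7544 of 11490 genes did on their brightest probe set. Between the wild types 46 of 90 were higher and 4 lower, where 24.2% of 21212 were higher and 9.24% lower. In STAT4 loss 9 of 91 were lower and 3 higher, where 5.75% of 21764 were lower and 6.69% higher. Requiring every probe set of a gene to share the call left 18 members lower in STAT6 loss and 20 higher in Th2 wild type cells, but 11 of each have a single probe set at the level minimum and meet this by construction. Of the called members with several, 7 of 12 met it in STAT6 loss, 9 of 12 between the wild types and 0 of 4 in STAT4 loss. The probe sets of Hsp90b1, Dnajc3, Sel1l, Derl1, Ssr1, Ern1, Hyou1, Spcs1 and Sec61a1 spread over more than 1 log2 unit in STAT6 loss, the comparison that uses the array with the largest 3′ excess of the actin control. The part of RNA quality in these differences was not tested.

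**Figure D5:**
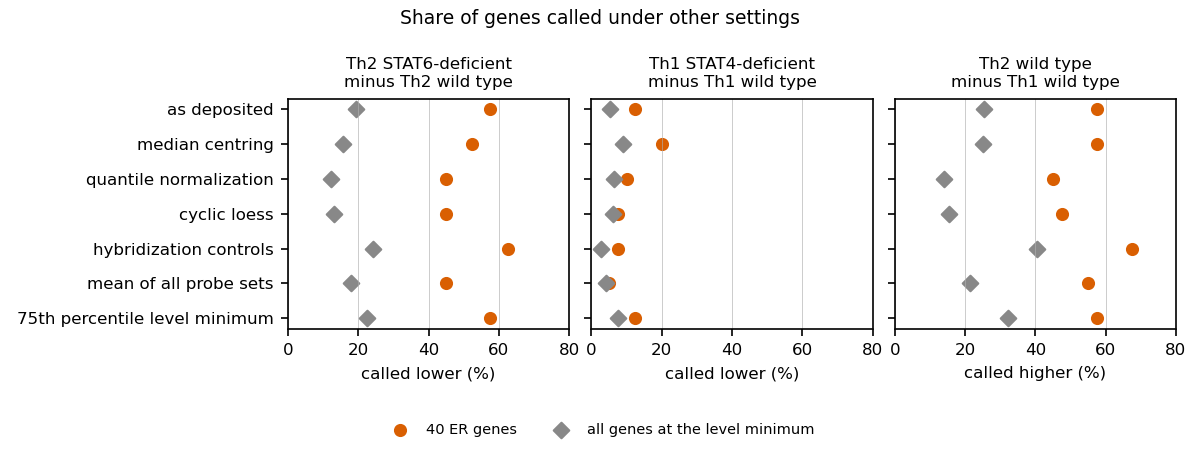
Share of genes called (%) in 3 comparisons under 7 settings, for the 40 ER genes (orange circles) and for all genes at the level minimum (grey diamonds). In STAT6 loss from 18 to 25 of the 40 are lower and between the wild types from 18 to 27 are higher, with the grey share below the orange one in each; in STAT4 loss from 2 to 8 are lower, and the shares lie apart after median centring (20.0% and 8.92%) and close together with the mean of probe sets (5.0% and 4.22%).

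The other genes of the pathway were 101 from 6 lists, likewise chosen with earlier results of these data known. Their calls were counted on the deposited scale only. In STAT6 loss 30 of the 99 tested were lower (30.3%, against 19.5% of all genes) and 1 was higher, and their median was −0.63. Between the wild types 37 of 98 were higher (37.8%), against 25.4% of all genes and 32.2% of those reaching that percentile. Of the 98, 1 was lower (1.02%, against 8.14% of all genes), and their median was 0.83. In STAT4 loss 6 of 98 were lower (6.12%, against 5.34%) and 3 higher (3.06%, against 6.18%), near the shares of all genes. Among folding genes 5 of 16 (31.2%) were lower without STAT6, led by Nucb2 (−2.31), Ero1a, the oxidase that recharges protein disulfide isomerase (−1.82), the peroxidase gene Prdx4 (−1.67) and Erp44 (−1.27). Pdia5 was the gene that was higher, at 5.80 and 6.87 in Th2 cells with and without STAT6, the first just under the level minimum. Degradation genes were lower in 4 of 15 (26.7%, near the 19.5% of all genes and the 22.4% of bright ones), namely Rnf5 (−1.75), the lectin genes Os9 (−1.55) and Erlec1 (−1.41), and Selenos (−1.07). Entry and glycosylation genes were lower in 5 of 21 (23.8%, likewise near them), led by Spcs3 (−1.71), Tram1 (−1.47), Srp72 (−1.40) and Ostc (−1.27). For transport between ER and Golgi 8 of 27 (29.6%) were lower, led by Kdelr3, a receptor that returns ER residents, Sec23a (−2.41), Surf4 (−1.73) and Cope (−1.23). Kdelr3 read 7.25 and 4.38 in Th2 cells with and without STAT6. The second lies under the level minimum of 5.82, so the size of its difference is not given.

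Of Atf4 and other genes linked to the PERK arm 5 of 9 were lower without STAT6 (55.6%, against 19.5% of all genes and 22.4% of bright ones, median −1.05). They were led by Trib3 (−1.59), Ddit3, which encodes CHOP (−1.22), Chac1 (−1.18) and Cebpb (−1.15). Atf4 (−1.05) lay just past the limit. These are transcript levels, and PERK activity was not measured. In STAT4 loss 3 of 9 were lower (33.3%, against 5.34% and 7.47%), Nupr1, Ppp1r15a (−1.32) and Ddit3 (−1.21). These counts hold for the deposited scale only. The hybridization controls read 12.03 in Th1 wild type and 11.65 in Th1 STAT4-deficient cells. Centring on them therefore moves every STAT4 difference upwards, and these calls were not recounted under it. Nupr1 read 7.55 and 5.15 in Th1 cells with and without STAT4. The second lies under the level minimum of 5.82, so the size of its difference is not given. Among regulators, Prdm1, which encodes Blimp-1, a factor that acts upstream of Xbp1 in plasma cells, read 7.35 and 5.92 in Th1 cells with and without STAT4, and 11.09 and 5.61 in Th2 cells with and without STAT6. Its level without STAT6 lay under the level minimum of 5.82, so the size of that difference is not given; between the wild types it differed by 3.74 and in STAT4 loss by −1.43. Irf4, which acts with Blimp-1 in plasma cells, lay between 13.26 and 13.54 on all 4 arrays. Creb3l2, a membrane-bound factor related to ATF6, read 10.23 in Th2 cells, 8.61 in Th2 cells lacking STAT6, 7.99 in Th1 cells and 6.43 in Th1 cells lacking STAT4. It was lower in both losses, as was Prdm1. Creb3, of the same family, differed by −1.23 in STAT6 loss and was the third regulator called. That made 3 of 11 regulators lower (27.3%), near the 19.5% of all genes and the 22.4% of bright ones. Of the 11, 4 differed upwards by any amount, where 3946 of the 11490 genes tested did.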

How the data were processed

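Total RNA of mouse CD4+ T cells was hybridized to Affymetrix mouse arrays, 1 per group. The authors used RMA to make the deposited log2 value of each probe set, per the submitters' processing notes; the version and whether the arrays were normalized together are not given in the sources used here. Of 45101 probe sets 64 were controls, 34945 named 1 gene in the platform annotation, and 34741 of these were matched to RefSeq (GRCm38.p6) by gene ID to update symbols. The 18193 genes were each represented by their brightest probe set, 9010 having several. With 1 array a group no test was run; the number of arrays limits the precision. A call needed 2-fold and a level of 5.82 in the brighter array. Alternatives were median centring, quantile normalization, cyclic loess (limma 3.58.1), centring on 9 hybridization controls, the mean of probe sets, other level minimums and a 1.5-fold limit. The calling script was tested on simulated data with known differences, which checks the code and not the calls. Python 3.11.15, pandas 2.3.3 and numpy 2.4.6 were used. The members and lists were chosen with earlier results of these data known. Named in full were members called in STAT6 loss, STAT4 loss or between the wild types, the sensors, members whose probe sets spread over 1 log2 unit, and up to 4 called genes per pathway list by size of the STAT6 difference, with Prdm1 and Irf4. Genes named outside this rule (Nupr1, Ppp1r15a, the flat members and single markers) were chosen after their values were seen. RefSeq gave the promoter windows.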

Additional observations from a re-analysis of the deposited data

How the results depend on the processing

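The 23 calls of STAT6 loss became 18 (quantile normalization, loess, mean of probe sets) to 25 (hybridization controls) lower at the 2-fold limit, and the median lay between −1.29 and −0.87. The Th2 excess of the wild types held 18 to 27 members, with a median between 0.82 and 1.55. In each of these comparisons 18 members kept the call under all 5 scalings. Hyou1 became the 1 gene higher in STAT6 loss, and with Dnajb9 made the 2 lower between the wild types, under quantile normalization and loess. At a 1.5-fold limit these numbers were also 1 and 2. STAT4 loss was less firm. Its lower members numbered 8 after median centring, 3 after loess and with the hybridization controls, 2 with the mean of probe sets, 10 at 1.5-fold and 1 where all probe sets of a gene had to share the call, an alternative chosen after seeing the data. Its higher members numbered 2 with the hybridization controls (Hyou1 and Sel1l), 1 with the mean of probe sets and 2 at 1.5-fold, and its median turned to 0.14 with the hybridization controls. Between the knockouts 9 were higher after median centring, 1 after loess, with the hybridization controls and with the 75th percentile minimum, 0 with the mean of probe sets (the 2 lower then being Hsp90b1 and Hyou1) and where all probe sets had to agree, and 12 at 1.5-fold. The lower ones were 3 after quantile normalization (Hyou1, −1.04, added), 4 at 1.5-fold and 1 where all probe sets had to agree. Ern1 turned to −0.14 in that comparison with the mean of probe sets. That setting moved 26 more of the 160 member differences by more than the probe-set SD, and no scaling did so for any. This SD holds no variation between arrays, so it serves as a yardstick only. Median centring and the hybridization controls shift all genes of a comparison by the same amount. That amount was smaller than the SD, so these settings could move none. The causes were not tested. No paired analysis was possible because each group has 1 array. As deposited, 2 members lay within 0.1 log2 units below the limit and 2 above it in STAT6 loss, 3 and 1 in STAT4 loss, and 3 and 2 between the wild types.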
